A study of Rattus norvegicus with 20 samples.

Results

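The lowest dose of the flame retardant PBDE-47, 0.1 mg/kg per day, was compared with the corn oil vehicle in rat liver. The comparison rests on 10 of the 20 Affymetrix arrays of the study, 5 per group, chosen by their titles, and on 31042 of the 31099 probe sets, the other 57 being array controls. PBDE-47 is a brominated diphenyl ether that accumulates in fat and crosses to the young before and after birth. Wistar Han (Crl:WI (Han)) dams aged 11 to 12 weeks arrived on gestation day 2. They were dosed by gavage, at 5 mL/kg, from gestation day 6 to postnatal day 4. Vehicle dams received corn oil alone, and the 0.1 mg/kg dams received the same oil with PBDE-47 at 0.02 mg/mL. The remaining 10 arrays, at 15 and 50 mg/kg, share the vehicle arrays and entered the fit for its estimate of spread. The question was how small a change in the genes of xenobiotic response the 0.1 mg/kg arrays could show, and which transcripts varied most between arrays of the same group.

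Every sample was the flash-frozen left lobe of a liver, of which 100 ng of RNA was amplified from the 3' end. The labels leave unsaid if the livers are maternal or neonatal, if each array of a group is a separate animal, and which animals were littermates. What the p-values measure is therefore the spread among these samples, which may be technical. The values are log2 intensities, from 2.16 to 14.8 over the 10 arrays, with array medians of 5.61 to 5.65. Hepatocyte genes were high on all 10: Alb, which encodes albumin, ranged from 14.74 to 14.80 and the fetal and neonatal gene Afp from 14.21 to 14.34. All samples are labelled female. On all 20 arrays, however, the Y-linked Eif2s3y ranged from 8.79 to 9.48 and the brighter probe set of the Y-linked Uty from 8.65 to 9.20, while the 4 probe sets of Xist, the RNA of the inactive X chromosome, lay between 2.49 and 3.62. The measured levels thus go against the sex label on every array of both groups alike. They also go against livers taken from the dams, which are female. In content, 5 of the 10 arrays stand apart. Skeletal muscle transcripts were high on vehicle replicate 2 and on 0.1 mg/kg replicates 1, 4 and 5, and exocrine pancreas transcripts were high on 0.1 mg/kg replicate 2. Leaving those 5 out keeps 4 vehicle arrays and 1 array at 0.1 mg/kg, and values without them are given where they move a result most.

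The liver meets foreign chemicals with receptors that switch on the enzymes and transporters that clear them. The constitutive androstane receptor CAR and the pregnane X receptor PXR raise cytochromes P450 of the 2B, 2C and 3A subfamilies, with their electron donor Por and the haem-synthesis enzyme Alas1. The aryl hydrocarbon receptor AhR raises Cyp1a1 and Cyp1a2, and NRF2 raises genes of glutathione and quinone metabolism such as Nqo1 and Gclc.

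No probe set passed the test between 0.1 mg/kg and vehicle. Of the 31042 tested, 0 (0%) passed an adjusted p of 0.05 in limma's moderated test with Benjamini-Hochberg adjustment, and the smallest adjusted p was 0.229. At an unadjusted p under 0.05 there were 2134 (6.87%), of which 1203 (3.88%) were higher at 0.1 mg/kg and 931 (3%) lower. The same fit called 36 probe sets (0.116%) at 15 mg/kg and 290 (0.934%) at 50 mg/kg, against the same vehicle arrays. Leaving out vehicle replicate 4 or 0.1 mg/kg replicate 3 gave 1 call each, the same unnamed probe set, at adjusted p = 0.0364 and 0.0402. With all arrays its vehicle values were 5.52, 5.22, 5.15, 4.92 and 5.38 and its 0.1 mg/kg values 4.53, 4.55, 4.90, 4.58 and 4.41. The groups did not overlap for it, at a difference of -0.64 (95% interval -0.87 to -0.42), but it was picked by its p-value in this comparison.

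The lists of xenobiotic response held 75 measured genes, none of which passed the adjusted threshold. Of these genes 29 had a positive difference, or 38.7%, against 53.2% of all probe sets. The median difference was -0.04 on the log2 scale, against 0.01 over all probe sets. The number at an unadjusted p under 0.05 was 1 gene, Gsta3, where 6.87% of all probe sets passed. For no gene of the 75 did the groups separate. Over all probe sets the 0.1 mg/kg arrays lay wholly above vehicle for 0.763% and wholly below for 0.474%. For 19 of the 75 genes the 95% interval of the difference lay within 1.2-fold in either direction, against 42.7% of all probe sets. For 54 of the 75 genes it lay within 1.5-fold, and for 66 within 2-fold. Of all probe sets 93.1% were bounded within 1.5-fold and 98.5% within 2-fold, where 72% of the xenobiotic genes were within 1.5-fold. Without the arrays bearing muscle or pancreas transcripts 24 were within 1.5-fold. With intervals widened to hold jointly for the 75 genes, 31 remained within 1.5-fold and 56 within 2-fold. To pass a Bonferroni correction over all probe sets, these genes would have needed a median change of 1.83-fold, from 1.26-fold for the microsomal glutathione transferase Mgst1 to 6.32-fold for Cyp2a3. The median over all probe sets was 1.56-fold. Several genes near the floor of the scale, such as Cyp3a9 at 3.44 to 3.79, have narrow intervals that do not bound a change in their RNA, because background sets most of their signal. Restricted to the 58 genes with a mean of at least 6, a choice made after seeing the data, 42 were within 1.5-fold. Of all probe sets with such a mean, 12827 of 13980 were.

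Cyp1a1, the monooxygenase most closely tied to AhR, read 7.94, 7.52, 7.80, 7.88 and 7.21 on vehicle arrays 1 to 5 and 7.48, 7.49, 7.49, 8.05 and 7.36 on the 0.1 mg/kg arrays. The groups overlapped, the highest value being 0.1 mg/kg replicate 4 and the lowest vehicle replicate 5. The difference was -0.09 (SE 0.22, 95% interval 0.684- to 1.28-fold), so a rise beyond 1.28-fold lay outside the interval, and without the muscle and pancreas arrays the upper bound was 1.57-fold. At 15 and 50 mg/kg the difference from the same vehicle arrays was 2.50 and 3.46. Cyp1a2, the other hepatic member of the Cyp1a pair, was far less tightly bounded. Its values were 7.01, 7.89, 7.57, 7.73 and 9.09 in vehicle and 8.55, 7.76, 8.11, 8.79 and 8.04 at 0.1 mg/kg. Vehicle held both the lowest and the highest array, and the interval ran from 0.809- to 2.12-fold around a difference of 0.39. Without vehicle replicate 5 that difference was 0.70. Without vehicle replicate 1 it was 0.18, and without the muscle and pancreas arrays 0.26, with an upper bound of 3.31-fold. Cyp1b1 and the receptor gene Ahr differed by -0.01 and -0.05, with upper bounds of 1.18- and 1.29-fold. Of the 10 AhR genes 8 were bounded within 1.5-fold, all but Cyp1a2 and Nqo1, against 93.1% of all probe sets.

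**Figure D1:**
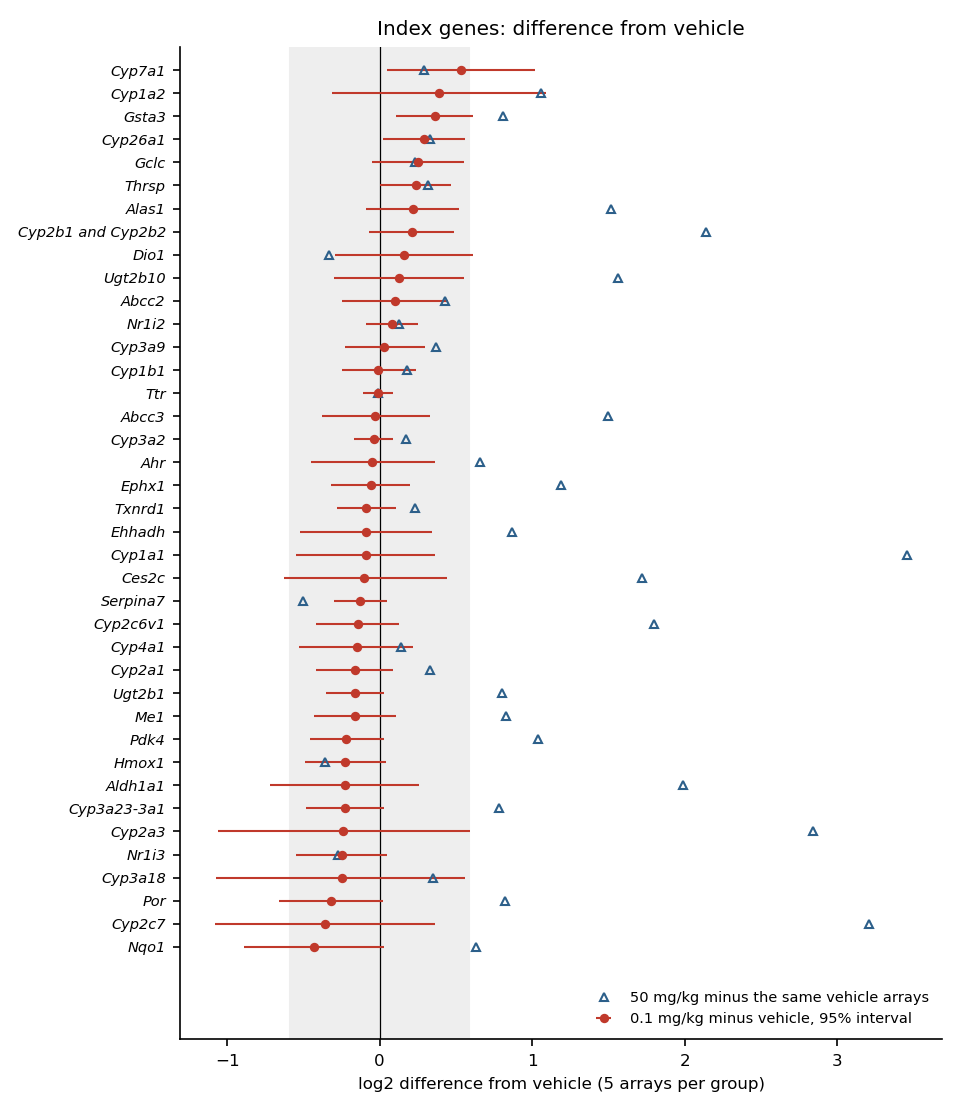
Difference from vehicle on the log2 scale (x axis) for the 38 index genes and the probe set shared by Cyp2b1 and Cyp2b2 (y axis, ordered by the 0.1 mg/kg difference). Red points and bars are the 0.1 mg/kg difference with its 95% interval, open triangles are the 50 mg/kg difference from the same 5 vehicle arrays, and the grey band spans 1.5-fold in either direction. The 0.1 mg/kg differences run from -0.43 for Nqo1 to 0.53 for Cyp7a1, while the triangle of Cyp1a1 lies at 3.46.

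Among the 24 genes of the CAR and PXR list, 14 were bounded within 1.5-fold, against 93.1% of all probe sets. A positive difference was seen in 10, against 53.2% of all probe sets. At an unadjusted p of 0.05, 0 passed, where 6.87% of all probe sets did, so the count is no result about the list. Cyp2b1 and Cyp2b2, the phenobarbital-inducible P450s that serve as the standard readout of CAR, are measured together by a shared probe set. It read 11.39, 11.92, 11.92, 11.99 and 12.20 in vehicle and 11.89, 12.35, 11.61, 12.36 and 12.29 at 0.1 mg/kg. The groups overlapped, with vehicle replicate 1 the lowest array and 0.1 mg/kg replicate 4 the highest. The difference was 0.21 (SE 0.13, interval -0.07 to 0.49, limma adjusted p = 0.801), so a rise beyond 1.41-fold lay outside the interval. Without the muscle and pancreas arrays its sign turned, to -0.27 (0.599- to 1.15-fold). It was 0.09 without vehicle replicate 1 and 0.34 without 0.1 mg/kg replicate 3, where the upper bound was 1.5-fold. At 15 and 50 mg/kg the difference was 1.99 and 2.14. The array cannot tell which of the genes gives that signal. Their promoters are shown to make plain how alike the pair is: the 200 bases before each start, from RefSeq on GRCr8, plus strand, at chr1:90645919-90646118 for Cyp2b1 and chr1:90722081-90722280 for Cyp2b2. Capitals mark their longest shared run, of 51 bases, and over the 183 bases that align at an offset of 17 the pair is 97.8% identical.
Cyp2b1: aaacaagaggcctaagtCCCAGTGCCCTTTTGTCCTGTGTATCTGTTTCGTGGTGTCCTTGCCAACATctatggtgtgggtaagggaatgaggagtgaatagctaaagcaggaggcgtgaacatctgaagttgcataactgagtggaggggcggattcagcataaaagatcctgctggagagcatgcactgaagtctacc
Cyp2b2: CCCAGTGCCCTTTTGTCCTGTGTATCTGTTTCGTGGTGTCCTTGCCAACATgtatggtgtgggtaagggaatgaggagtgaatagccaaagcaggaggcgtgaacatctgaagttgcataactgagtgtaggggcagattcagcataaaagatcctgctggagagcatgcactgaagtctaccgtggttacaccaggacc

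Cyp2c7, a P450 of the 2C subfamily, was low in both groups, at 4.46, 4.52, 4.17, 5.70 and 4.84 in vehicle and 5.05, 4.31, 4.19, 3.96 and 4.40 at 0.1 mg/kg. Vehicle replicate 4 was the highest array and the groups overlapped. The difference was -0.36, with an interval of 0.474- to 1.29-fold, against 2.52 and 3.21 at 15 and 50 mg/kg. Without vehicle replicate 4 it was -0.12 (0.566- to 1.5-fold), and without the muscle and pancreas arrays -0.61 (0.232- to 1.86-fold). Cyp2a3, a P450 of the 2A subfamily, had the widest interval of the 75 genes. It read 4.71, 5.98, 5.86, 6.54 and 7.35 in vehicle and 5.89, 4.67, 5.76, 6.23 and 6.72 at 0.1 mg/kg. Its range within vehicle was wider than that at 0.1 mg/kg, and its interval was 0.479- to 1.5-fold. The difference was -0.24, and 2.41 and 2.84 at 15 and 50 mg/kg. It turned to 0.08 without vehicle replicate 5 and to 0.06 without 0.1 mg/kg replicate 2, and was -0.58 without vehicle replicate 1 and -0.45 without 0.1 mg/kg replicate 5. Without the muscle arrays it was -0.90.

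Several brighter genes of the lists were bounded more tightly. Cyp2c6v1, an abundant hepatic 2C enzyme, differed by -0.14, with an upper bound of 1.1-fold, and Cyp3a2, a 3A enzyme, by -0.04, with an upper bound of 1.06-fold. Ephx1, the microsomal epoxide hydrolase, differed by -0.06 and the efflux pump Abcc3 by -0.03, with upper bounds of 1.15- and 1.26-fold. Ugt2b1, a glucuronosyltransferase, differed by -0.16 with an upper bound of 1.02-fold. The pair of probe sets shared by 8 Ugt1a transcripts differed by -0.02 and -0.10, with upper bounds of 1.08- and 1.1-fold. The receptor genes themselves, Nr1i2 for PXR and Nr1i3 for CAR, differed by 0.08 and -0.25. Nr1i3 read 7.28, 7.84, 7.27, 7.50 and 8.33 in vehicle and 7.41, 7.33, 7.39, 7.45 and 7.4 at 0.1 mg/kg, a spread of 0.45 (SD) against 0.04. Without vehicle replicate 5 its difference was -0.08.

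A single vehicle array carried most of the difference for several genes. Por read 10.05, 8.95, 8.88, 9.06 and 8.99 in vehicle and 8.84, 8.90, 8.80, 8.81 and 8.98 at 0.1 mg/kg. On this probe set the groups lay within a common narrow range apart from vehicle replicate 1. The difference was -0.32 (interval 0.634- to 1.01-fold, limma adjusted p = 0.753), and without vehicle replicate 1 it was -0.10 (0.814- to 1.07-fold). The dimmer Por probe set differed by -0.27. It read 7.89, 7.37, 6.71, 7.71 and 7.04 in vehicle and 6.75 to 7.52 at 0.1 mg/kg, so vehicle replicate 1 did not stand apart there. The retinaldehyde dehydrogenase Aldh1a1 went from -0.23 to -0.05 without that array, Cyp3a23-3a1 from -0.23 to -0.08 and Alas1 from 0.22 to 0.05. Vehicle replicate 1 was the highest vehicle array for Por, Aldh1a1 and Cyp3a23-3a1 and the lowest for Alas1.

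**Figure D2:**
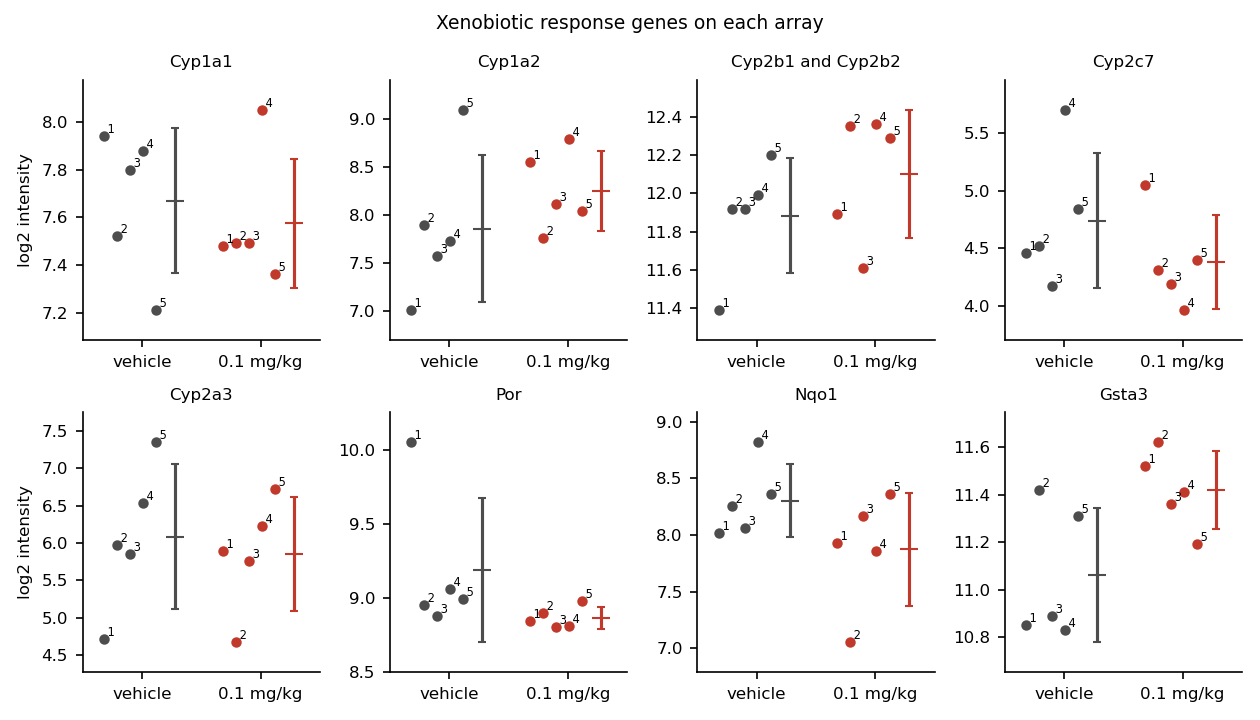
Log2 intensity (y axis, a separate scale in each panel) of 8 xenobiotic response genes on each array of the vehicle and 0.1 mg/kg groups (x axis). Numbers beside the points are replicate numbers, and the bars to the right are the mean and SD of 5 arrays. Vehicle replicate 1 lies at 10.05 for Por and vehicle replicate 5 at 9.09 for Cyp1a2, and the groups overlap in every panel.

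Of the 19 NRF2 genes 13, or 68.4%, were bounded within 1.5-fold, against 93.1% of all probe sets. At an unadjusted p under 0.05 there was 1 of the 19, where 6.87% of all probe sets passed, so the count is no result about the list. That gene was Gsta3, a glutathione transferase subunit, with 10.85, 11.42, 10.89, 10.83 and 11.31 in vehicle and 11.52, 11.62, 11.36, 11.41 and 11.19 at 0.1 mg/kg. Vehicle replicates 2 and 5 lay within the 0.1 mg/kg range and the other three below it. The difference was 0.36 (SE 0.12, interval 1.08- to 1.53-fold, limma adjusted p = 0.556), and 0.54 and 0.81 at 15 and 50 mg/kg. Over the arrays left out in turn it ranged from 0.30 to 0.45. Nqo1, a quinone reductase that both NRF2 and AhR raise, read 8.02, 8.26, 8.06, 8.82 and 8.36 in vehicle and 7.93, 7.05, 8.17, 7.86 and 8.36 at 0.1 mg/kg. The lowest array was 0.1 mg/kg replicate 2, the array with pancreas transcripts, without which the difference of -0.43 (0.538- to 1.02-fold) became -0.22. Akr1b8, an aldose reductase relative, had the highest upper bound of the 75 genes, 2.83-fold. Its values were 5.40, 4.11, 5.55, 5.45 and 4.32 in vehicle and 5.70, 5.39, 5.79, 5.55 and 5.88 at 0.1 mg/kg. The groups overlapped, with vehicle replicates 2 and 5 well below the other 8 arrays, and the difference was 0.69. Gclc, the catalytic subunit of glutathione synthesis, differed by 0.25 and haem oxygenase Hmox1 by -0.23, with upper bounds of 1.47- and 1.03-fold. Txnrd1, the cytosolic thioredoxin reductase, differed by -0.09, with an upper bound of 1.08-fold. Without the muscle and pancreas arrays Hmox1 differed by -0.50 and Txnrd1 by -0.33.

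Of the 23 other conjugating enzymes and transporters 19 were bounded within 1.5-fold, against 93.1% of all probe sets. The exceptions were the sulfotransferase Sult1b1, the glutathione transferase Gstm2 and the carboxylesterases Ces1c and Ces1d. Gstm2 had the lowest lower bound of the 75 genes, 0.448-fold. It read 6.67, 8.01, 7.01, 7.34 and 8.27 in vehicle and 6.42, 5.94, 7.91, 7.10 and 7.80 at 0.1 mg/kg. Sult1b1 read 11.66, 10.72, 10.48, 10.57 and 9.75 in vehicle and 10.46, 12.21, 11.29, 10.96 and 10.20 at 0.1 mg/kg. Gstm2 was at its highest on vehicle replicate 5 and its lowest on 0.1 mg/kg replicate 2, and Sult1b1 was the reverse. Both groups held high and low arrays for each. Without the muscle and pancreas arrays the difference of Gstm2 turned from -0.43 to 0.58 and that of Sult1b1 went from 0.39 to 0.68, or 1.14 without the muscle arrays only. Without 0.1 mg/kg replicate 2 they were -0.16 and 0.09.

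The spread of the 75 genes was uneven over the arrays. A component (a single pattern over the arrays) that was fitted to their deviations from the group means held 39.7% of the squared deviation, with vehicle replicate 5 at 3.24 and vehicle replicate 1 at -3.14 at its ends. Cyp2a3, Gstm2, Ces1c and Cyp1a2 were high at the replicate 5 end and Sult1b1 low there. Vehicle replicates 1 and 5 each held 18.6% of the squared deviation of the 75 genes and 0.1 mg/kg replicate 2 held 13.1%, where the other arrays held 5.26 to 11%. Along the mean of the skeletal muscle list ran 9.94% of it. An even division over the 8 degrees of freedom gives 12.5%. Along components 1, 2 and 3 of all probe sets ran 11.1%, 19.4% and 19.7%, and the same arrays, vehicle replicates 1 and 5, stand at the ends of component 2 of all probe sets, at 24 and -24.4. Along the mean of the cholesterol synthesis list ran 24.1%, and along that of the pericentral hepatocyte list, which shares Cyp1a2, 20.9%.

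Over all probe sets the largest spread within groups was in skeletal muscle transcripts. Component 1 of the deviations held 28.8% of the squared deviation and component 2 held 17.6%, against the even share of 12.5%. The leading genes of component 1 were Acta1, Myl1, Myh2 and Myl11, which encode skeletal actin and myosin chains. The 31 measured genes of the skeletal muscle list, 8.21% of the squared deviation in 0.1% of the probe sets, ran along that component, and 28.6% of the whole lay along the list mean. Without the list's own probe sets 22.4% did. By the same measure 24% ran along the interferon response list mean and 22.1% along the GH and IGF list mean, so that share is not particular to muscle. The other lists had lower shares. Acta1, the probe set with the widest spread of all, read 3.51, 12.23, 2.72, 4.44 and 3.46 in vehicle and 10.42, 3.33, 3.08, 12.52 and 12.01 at 0.1 mg/kg. The array values fell near the floor or high up, with vehicle replicate 2 and 0.1 mg/kg replicates 1, 4 and 5 high. The within-group SD was 4.33, and the difference of 3.00 had an interval of -1.66 to 7.66 (limma adjusted p = 0.836). Ckm, muscle creatine kinase, read 4.37, 9.91, 4.40, 4.71 and 4.59 in vehicle and 7.66, 4.44, 4.81, 10.31 and 9.18 at 0.1 mg/kg, with the same 4 arrays high. The muscle list mean was 4.46, 8.03, 4.34, 4.61 and 4.42 in vehicle and 6.45, 4.43, 4.41, 8.44 and 7.64 at 0.1 mg/kg, and 26 of 31 genes were higher on each of those 4 arrays than on any of the other 6. Arrays without muscle transcripts numbered 4 in vehicle and 2 at 0.1 mg/kg. With the muscle arrays as a block 0 probe sets were called and 50 of the 75 xenobiotic genes were bounded within 1.5-fold, and without those arrays 0 and 38. In bulk RNA a change in the number of cells of a type and a change in RNA per cell cannot be told apart.

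Promoters of 2 of these genes are shown because the muscle transcripts moved as a block: the 200 bases before the start, from RefSeq on GRCr8, at chr19:68784195-68784394 on the minus strand for Acta1 and chr1:88189261-88189460 on the plus strand for Ckm. Capitals mark the TATA sequence TATAAA, the E-box CANNTG bound by muscle regulators, and the CArG box bound by serum response factor, each searched on both strands. Acta1 held TATAAA 29 bases and a CArG box 94 bases before the start, and Ckm held E-boxes at 75 and 199 bases. Of 33469 such windows 10.4% hold TATAAA, 57% the E-box and 1.16% the CArG box. A match is a description of the letters, not a measured site.
Acta1: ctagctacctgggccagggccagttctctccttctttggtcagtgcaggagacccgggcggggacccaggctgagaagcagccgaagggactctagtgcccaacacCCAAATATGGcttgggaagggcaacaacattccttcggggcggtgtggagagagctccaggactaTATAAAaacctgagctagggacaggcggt
Ckm: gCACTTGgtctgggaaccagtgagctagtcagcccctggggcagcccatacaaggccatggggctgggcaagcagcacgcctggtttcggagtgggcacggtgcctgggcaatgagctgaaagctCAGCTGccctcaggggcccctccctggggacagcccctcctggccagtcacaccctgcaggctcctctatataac

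**Figure D3:**
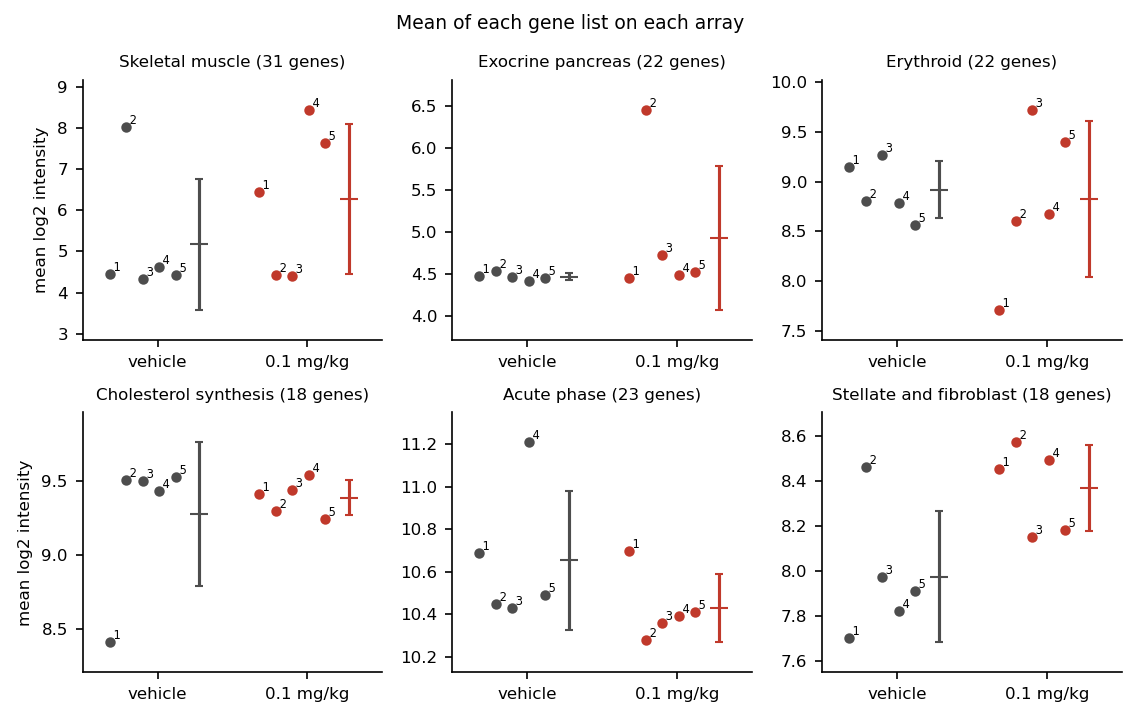
Mean log2 intensity of 6 gene lists (y axis, a separate scale in each panel) on each array of both groups (x axis), with replicate numbers beside the points and the mean and SD of 5 arrays to the right. Muscle stands high on vehicle replicate 2 and 0.1 mg/kg replicates 1, 4 and 5, pancreas at 6.45 on 0.1 mg/kg replicate 2, cholesterol synthesis low at 8.41 on vehicle replicate 1 and acute phase high at 11.21 on vehicle replicate 4.

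Exocrine pancreas transcripts stood out on a single array. Pnliprp1, a pancreatic lipase relative, was at 8.60 on 0.1 mg/kg replicate 2 and between 3.15 and 4.03 on the other 9, and the chymotrypsinogen gene Ctrb1 was at 8.52 and between 3.41 and 4.49. The list mean was 6.45 there and 4.41 to 4.72 elsewhere, and 18 of the 22 measured genes were highest on that array.

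Erythroid genes, from red cell precursors, were among the leading genes at the positive end of component 2. The largest loadings there were those of Aqp3, a water channel also found in red cells, the erythroid gene Car1, the class II antigen gene RT1-Bb and the erythroid gene Rhag. The ends of that component were vehicle replicates 1 and 5, at 24 and -24.4. The erythroid list mean was lowest on 0.1 mg/kg replicate 1, which scored -21.1. It was highest on 0.1 mg/kg replicates 3 and 5, which scored 14.2 and 17.5. Vehicle replicate 3, the highest vehicle array for the list, scored 3.2. The list mean was 9.15, 8.81, 9.27, 8.79 and 8.57 in vehicle and 7.71, 8.61, 9.72, 8.68 and 9.40 at 0.1 mg/kg. Its range was wider at 0.1 mg/kg (SD 0.78) than in vehicle (SD 0.29), with replicate 1 lowest for 20 of the 22 genes and replicate 3 highest for 20. Carbonic anhydrase Car1 read 8.69 and 11.80 on those arrays, and the Rh-associated glycoprotein Rhag 6.60 and 9.36. The group means of the list differed by -0.10.

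Cholesterol synthesis genes were low on vehicle replicate 1. Their list mean there was 8.41, against 9.24 to 9.54 on the other 9 arrays, and 17 of the 18 genes were lowest on that array. The sterol oxidase Msmo1 read 8.31, 11.07, 10.92, 10.63 and 10.83 in vehicle and 10.87, 10.74, 10.82, 11.12 and 10.51 at 0.1 mg/kg. The regulator Srebf1 was at 7.61 on that array and between 9.36 and 9.69 on the others, and fatty acid synthase Fasn at 7.81 and between 9.11 and 9.59. This is the array on which Por was highest and Alas1 lowest. Cib2, a calcium-binding protein, and Mab21l3 were among the leading genes at the negative end of component 3, at 6.51 and 7.73 on vehicle replicate 1 and at most 4.26 and 5.15 elsewhere.

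Acute phase genes, which liver makes in inflammation, were highest on vehicle replicate 4, with a list mean of 11.21 against 10.28 to 10.70 elsewhere and 16 of 23 genes highest there. Lcn2, an iron-trapping acute phase protein, read 9.43, 9.31, 10.22, 13.02 and 9.86 in vehicle and 10.00, 9.98, 10.07, 9.71 and 10.06 at 0.1 mg/kg. Of the 23 genes 4 were lower at an unadjusted p under 0.05, against 3% of probe sets. A negative difference was seen in 22, where 53.2% of all probe sets had a positive one. The 4, named after their values were seen, were Fga, Lbp, Socs3 and Serpina3n, at -0.17, -0.60, -0.39 and -0.32 (limma adjusted p = 0.604, 0.712, 0.586 and 0.680). For Fga alone of the list the groups did not overlap. Over all probe sets the 0.1 mg/kg arrays lay wholly below vehicle for 0.474%, and a single gene is no result about the list. Without vehicle replicate 4 the count was 2 and the mean difference over the list went from -0.23 to -0.09. The count was also 2 without 0.1 mg/kg replicate 3 or 4, and it was 7 and 8 without vehicle replicates 3 and 5. It was 2 with the values quantile normalized again, with the muscle arrays as a block or with muscle, pancreas and erythroid covariates, and 1 without the muscle and pancreas arrays.

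**Figure D4:**
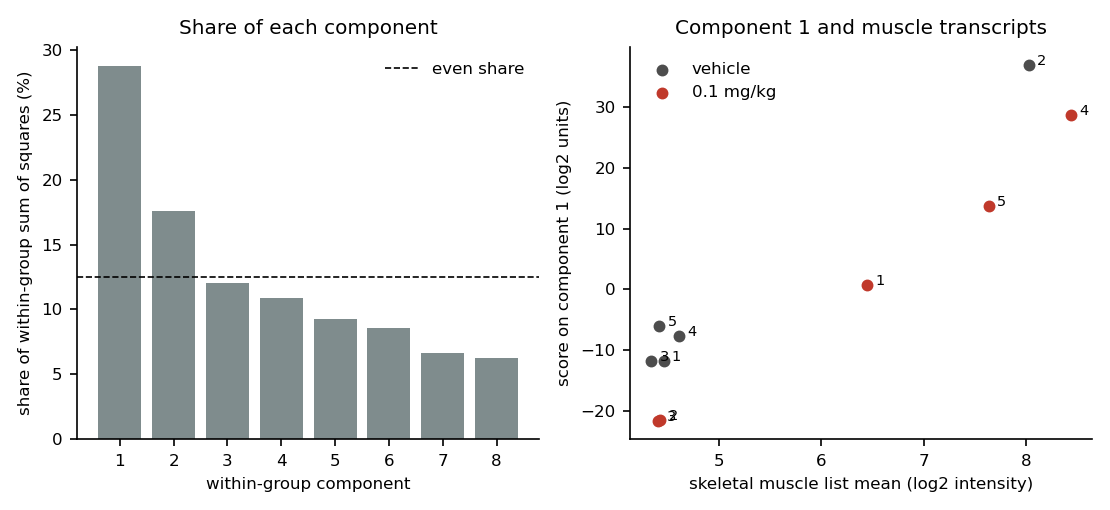
Left, share of the within-group squared deviation of 31042 probe sets (y axis, percent) held by each of the 8 within-group components (x axis), with the even share of 12.5% as a dashed line. Right, score of each array on component 1 (y axis, log2 units) against its skeletal muscle list mean (x axis, log2 intensity); vehicle replicate 2 lies at 37 and 0.1 mg/kg replicate 4 at 28.8, and the arrays without muscle transcripts lie below 0.

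Matrix and contractile genes of stellate cells and fibroblasts leaned the other way. Of the 18 genes 16 had a positive difference, against 53.2% of all probe sets, and 0 passed the adjusted threshold. At an unadjusted p under 0.05, 5 were higher, against 3.88% of probe sets. This was 1 of 41 lists examined, and Des is also on the muscle list. In the list of immediate early genes 13 of 16 were positive and 3 were higher at the unadjusted p. Those 3 became 0 with the values quantile normalized again and 4 without 0.1 mg/kg replicate 2. Without the muscle-bearing arrays 7 of the 16 were positive, and the mean difference over that list went from 0.11 to -0.06. Lumican, Lum, read 7.65, 9.27, 8.45, 7.85 and 8.47 in vehicle and 9.89, 10.06, 9.30, 9.42 and 9.20 at 0.1 mg/kg. Of the vehicle arrays replicate 2, the muscle-bearing one, was the only one within the 0.1 mg/kg range. The difference was 1.24 (SE 0.41, interval 0.38 to 2.09, limma adjusted p = 0.564). The others, Postn, Col1a1, Col1a2 and Col3a1, differed by 1.19, 0.87, 0.61 and 0.37, the collagens being named after their values were seen. The list mean was 7.70, 8.46, 7.97, 7.82 and 7.91 in vehicle and 8.45, 8.57, 8.15, 8.49 and 8.18 at 0.1 mg/kg. The mean difference over the list was 0.40. With muscle, pancreas and erythroid list means as covariates it was 0.15 with 1 gene past the unadjusted p, with muscle-bearing arrays as a block 0.23 with 1, and without the muscle and pancreas arrays 0.30 with 1. The count was also 1 with the replicate block, the block of the description number, no variance shrinkage, an intensity trend or array weights. Without the muscle-bearing arrays the mean difference was 0.51 with 7 genes, and without vehicle replicate 2, the muscle-bearing vehicle array, 0.52 with 7. Leaving out vehicle replicate 1 or 4, or 0.1 mg/kg replicate 1, 2 or 4, left 1 gene, and leaving out vehicle replicate 3 or 5 left 2. The count stayed at 5 without 0.1 mg/kg replicate 3 or 5 and with the values quantile normalized again. It was 4 with array medians made equal and 7 with only the vehicle and 0.1 mg/kg arrays in the fit. Without vehicle replicate 1 the mean difference was 0.33.

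The smallest p-values among probe sets with a gene name all had an adjusted p of 0.429. Tgfa, a ligand of the epidermal growth factor receptor, read 7.94, 7.76, 8.17, 7.96 and 7.97 in vehicle and 8.50, 8.59, 8.45, 8.77 and 8.33 at 0.1 mg/kg. The groups did not overlap. The difference was 0.57 (SE 0.12, interval 1.24- to 1.77-fold), and at 15 and 50 mg/kg it was 0.08 and 0.07. Pcmtd2 read 8.11, 7.97, 7.97, 7.67 and 8.04 in vehicle and 7.39, 7.62, 7.58, 7.43 and 7.29 at 0.1 mg/kg, again without overlap. Its difference was -0.49 (0.620- to 0.819-fold), and -0.36 and -0.55 at the higher doses. Both genes were picked by their p-values in this comparison, so the lack of overlap follows from that choice. The higher-dose differences use the same vehicle arrays and are no separate evidence. Genes with several probe sets did not all bear such values out. The other probe set of Tgfa differed by 0.53, but the brighter one of Pcmtd2 differed by -0.18. The other 5 in the higher direction, Ctsm, Nhsl2, Bcl2l10, Plpp4 and Syt7, differed by 0.28 to 0.37, and Ctsm and Syt7 lay below 3.5 on all 10 arrays. The other 5 in the lower direction, Arl6ip6, Cpsf7, Ptprj, Pik3ca and Snapc4, differed by -0.62 to -0.31. Pik3ca encodes the catalytic subunit of a phosphoinositide kinase and Ptprj a receptor phosphatase. The other 5 probe sets of Pik3ca differed by -0.15 to 0.02, the other 3 of Cpsf7 by -0.07 to 0.03 and the other of Ptprj by 0.05. Further probe sets of Nhsl2, Syt7 and Snapc4 lay between -0.05 and 0.09.

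Of the index genes outside drug metabolism, Cyp7a1, which starts the making of bile acids from cholesterol, had the largest difference, 0.53. It read 7.31, 8.51, 8.23, 7.64 and 7.6 in vehicle and 8.69, 8.02, 8.84, 8.06 and 8.34 at 0.1 mg/kg. The groups overlapped, and the interval was 1.03- to 2.02-fold (limma adjusted p = 0.685). Without the muscle and pancreas arrays the difference was 1.15, with an upper bound of 3.5-fold and a limma adjusted p of 1. Cyp26a1, which clears retinoic acid, differed by 0.29 (limma adjusted p = 0.691) at values of 3.32 to 4.03, near the floor, and by 0.56 without the muscle and pancreas arrays. The thyroid hormone carriers Ttr and Serpina7 differed by -0.01 and -0.13, with intervals of 0.927- to 1.07-fold and 0.810- to 1.03-fold. The deiodinase Dio1 differed by 0.16 (0.820- to 1.52-fold).

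Some probe sets switched between low and high from array to array. Abhd3, a phospholipase, read 3.5, 3.34, 9.55, 5.52 and 8.50 in vehicle and 3.05, 3.05, 3.00, 3.16 and 3.01 at 0.1 mg/kg. Vehicle replicates 3 and 5 were high, replicate 4 lay between, and every 0.1 mg/kg array was below every vehicle array. The difference was -3.03, the largest of all probe sets, with an interval of -5.88 to -0.18 (limma adjusted p = 0.707). Its dimmer probe set differed by -0.50. Eeig2 read 3.94, 6.12, 5.80, 3.13 and 6.05 in vehicle and 3.25, 3.52, 6.43, 5.75 and 5.63 at 0.1 mg/kg, with low and high arrays in both groups. The class II antigen gene RT1-Bb has a pair of probe sets that ran in opposite order. The first read 7.50, 6.44, 6.53, 6.22 and 4.46 in vehicle and 6.42, 5.67, 6.21, 6.21 and 7.31 at 0.1 mg/kg, while the second read 4.49, 6.21, 5.83, 5.35 and 7.76, and then 5.62, 5.05, 5.41, 5.45 and 4.18.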

How the data were processed

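The deposited values are log2 intensities of Affymetrix Rat Genome 3' arrays, summarized by the authors with RMA, per the submitters' processing notes. RMA narrows differences near the floor of the scale. Precision is limited by the number of arrays, 5 per group. Array controls were removed and no filter on low values was applied to the remaining 31042 probe sets. The platform annotation names 1 gene for 20826, several for 436 and none for 9780, and 20758 matched RefSeq. For a gene with several probe sets, the brightest on average that names it alone was used, except for the smallest p-values, which go by probe set.

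Means of 4 groups were fitted to 20 arrays with limma 3.58.1 in R 4.3.3 (lmFit, eBayes), two-sided, with Benjamini-Hochberg adjustment over all probe sets and 95% intervals. Joint intervals use a Bonferroni level over 75 genes. Components come from a singular value decomposition of deviations from group means. The code was tested on simulated data. The comparison, lists and tests were chosen with earlier results of these data known. Genes named are 38 index genes, the 6 smallest p-values in each direction, the 12 largest within-group SDs, up to 4 per list by that SD and the 4 largest loadings each way on components 1 to 3; others are said to be chosen after their values were seen. Of 5 same-numbered pairs of arrays, 1 correlated over 0.1 in its deviations from the group means, which cannot show if samples were paired. The block of the description number groups arrays by the leading digit of that number. Between arrays the correlation was 0.985 to 0.9951, and 0 pairs were identical. Alternatives covered blocks, normalization, filters, variance shrinkage, array weights and arrays left out. The plots used Python 3.11.15 and its library matplotlib 3.10.9.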

Additional observations from a re-analysis of the deposited data

Results flagged for a closer look

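Within a group of 5 arrays, the array at an end was far from the other four in 43 of 226 group tests (19%), where chance gives about 1 in 20 for a group of a gene not chosen by its spread. Most of these genes were chosen for a large spread within groups or for a large loading, so the share cannot be read against that rate. For the index genes alone, not chosen by spread, it was 10 of 76 (13.2%). The tests are not independent, since many of the genes move together. Vehicle replicate 1 held 12 of the 43, vehicle replicate 2 held 11 and 0.1 mg/kg replicate 2 held 7.

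On vehicle replicate 1 the high values were Cyp3a23-3a1 at 13.42, Por at 10.05, the stearoyl-CoA desaturase Scd at 6.05, Mab21l3 at 7.73 and Cib2 at 6.51. The low values there were Alas1 at 9.62, Srebf1 at 7.61, Fasn at 7.81 and the cholesterol synthesis genes Msmo1 at 8.31, Sqle at 7.56 and Fdft1 at 8.63, with a cholesterol synthesis list mean of 8.41.

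On vehicle replicate 2 the skeletal muscle list mean was 8.03, with Acta1 at 12.23, Myl1 at 11.59, Myh2 at 10.24, Myl11 at 11.56, Cox8b at 10.79, Tnnt3 at 9.6 and Ckm at 9.91. Also there, the intermediate filament gene Des was high at 8.57, the microfibril gene Mfap5, named after its values were seen, high at 6.88 and the pyruvate dehydrogenase kinase Pdk4 low at 8.64.

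On 0.1 mg/kg replicate 2 the exocrine pancreas list mean was 6.45, with Pnliprp1 at 8.6, Ctrb1 at 8.52, the amylase gene Amy2a3 at 6.73, the colipase gene Clps at 7.72 and the trypsinogen gene Prss3b at 8.06. Ttr was low there at 14.12.

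The other arrays held fewer. Vehicle replicate 3 was low for Ctsm at 2.78, vehicle replicate 4 high for Lcn2 at 13.02, and vehicle replicate 5 low for Cyp1b1 at 4.3 and Prss3b at 3.15. At 0.1 mg/kg, replicate 1 was high for the chemokine Ccl2 at 7.99, and replicate 3 was low for Serpina7 at 12 and the leptin receptor Lepr at 5.53. Replicate 4 was high for Cyp1a1 at 8.05 and low for Cyp3a9 at 3.44 and Lcn2 at 9.71, and replicate 5 was low for Gclc at 10.27, Arl6ip6 at 3.8 and the keratin Krt10 at 6.82.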

How the results depend on the processing

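The count of 0 probe sets past the adjusted threshold held in every alternative other than the single-array omissions, where it ranged from 0 to 1. The replicate block gave 0 probe sets past the adjusted threshold, 2150 at an unadjusted p under 0.05 and 53 bounded xenobiotic genes. It took the stellate and fibroblast genes past the unadjusted p from 5 to 1 and left the acute phase genes at 4. The unadjusted count was 849 with a filter on a mean of at least 6, 1137 with a filter at 5, and 978 with 1 probe set per gene, where fewer features are tested. Without arrays bearing muscle or pancreas transcripts it was 1367, 24 of the 75 xenobiotic genes were bounded within 1.5-fold and their median half-width was 0.555. That alternative keeps 4 vehicle arrays and 1 array at 0.1 mg/kg, and the lone sample is assumed to vary like the other groups. Without the muscle-bearing arrays alone, chosen after seeing the data, the half-width was 0.409. Joint intervals bounded 31 genes. The share of component 1 was 18.4% with probe sets scaled to equal variance. With each array left out in turn the unadjusted count ran from 1714 to 2612, the bounded genes from 50 to 56, their half-width from 0.274 to 0.295 and the share of component 1 from 22.9% to 32.7%. Of the 38 index genes 25 kept their sign in all alternatives, 9 higher and 16 lower, and the lowest adjusted p was 0.365. Probe sets near the floor have narrow intervals that say little of their RNA.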
